A study of Mus musculus with 10 samples.

Results

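The 47 genes described here encode molecular chaperones and components of the unfolded protein response. They were chosen by gene name from the 57010 genes of the deposited expression table, and all 47 were found and passed the filter on low counts. They comprise 24 genes whose products act in the cytosol, 4 in mitochondria and 19 in the endoplasmic reticulum (ER), in 10 classes. Bulk RNA was sequenced from CD8+ T cells of the mouse spleen, kept for 24 h with anti-CD3/CD28 beads (activated) or in the same medium without beads (rested). Anti-CD3/CD28 beads engage the T cell receptor complex and its co-stimulatory receptor. The 2 control mice were Dusp2fl/fl-E8I-cre-/- and the 3 conditional knockout (cKO) mice were Dusp2fl/fl-E8I-cre+/-, with 1 rested and 1 activated library per mouse, 10 in all. Dusp2 encodes a phosphatase of MAP kinases. All mice thus carried the floxed Dusp2 allele, and every cKO mouse but no control mouse carried the E8I-driven cre, which acts in CD8+ T cells, so the loss of Dusp2 and the presence of cre cannot be told apart. The ages of the mice are not stated in the labels.

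Both titles of cKO mouse 3 conflict with the other labels of those libraries, and its groups follow the characteristics and the library names. The title of its activated library reads rested cKO, and that of its rested library reads activated control. Control mouse 1 and cKO mice 1 and 2 were male, and control mouse 2 and cKO mouse 3 were female. Names of the male mice begin with one number and names of the female mice with another, so sex and whatever these numbers mark cannot be told apart. Library totals ran from 51203786 to 65135435 counts, at which 3 counts equal 0.0461 to 0.0586 CPM, the counts scaled to a common library size. Dusp2 itself stood at 92.6 ± 6.8 (SD, n = 2) and 295 ± 4.9 CPM in rested and activated control cells, and at 26.0 ± 1.9 (n = 3) and 51.8 ± 5.0 CPM in cKO cells. In the libraries of cKO mouse 3 taken as rested and activated it stood at 28.1 and 52.6 CPM. Irf4, which rose with activation in every other mouse, stood there at 7.87 and 1160 CPM. By these values both libraries lay with the groups they were given. CD8 T cell markers summed to 3260 to 3430 CPM in rested and 2650 to 2890 CPM in activated libraries. Over the same libraries, markers of CD4 and regulatory T cells (Cd4, Foxp3, Zbtb7b, Cd40lg and Ctla4) went from 10.3 to 18.6 CPM at rest to 52.1 to 85.1 CPM after activation. Their part in the activation results was not tested. B cell markers summed to at most 6.51 CPM and myeloid markers to at most 5.03 CPM. The NK and innate-like lymphocyte markers were Ncr1, Klrb1c, Klrc1, Klre1, Klra3, Klra7, Klra8, Tyrobp, Fcer1g and Gzma. They summed to 4.31 to 21.1 CPM at rest and 9.75 to 51.7 CPM after activation. Such sums do not tell other cells apart from expression by the CD8+ T cells themselves.

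Chaperones bind unfolded or partly folded proteins and keep them from aggregating while they fold. In the cytosol, HSP70 proteins pass clients to HSP90 or to the ring-shaped chaperonin TRiC, and the transcription factor HSF1 drives many of their genes under heat and other protein stress. In the ER, the sensors IRE1, ATF6 and PERK respond to unfolded protein: IRE1 (encoded by Ern1) splices the Xbp1 mRNA, ATF6 is cut to release a transcription factor, and PERK (Eif2ak3) slows translation and raises ATF4. Activated T cells grow and make large amounts of protein before they divide, so that their demand for folding is known to rise.

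Activation raised most of the 47 genes in both genotypes. In control mice 42 members rose and 2 fell, and in cKO mice 44 rose and 2 fell, by the edgeR quasi-likelihood test with a threshold of 0.05 on p-values adjusted (Benjamini-Hochberg) across the 18966 genes that passed the filter. Among all genes tested, 28.5% rose and 27.6% fell in control mice, and 31.5% rose and 31.9% fell in cKO mice. Both genes that fell, Dnajc3 and Edem1, encode ER proteins. Dnajb1, Bag3 and Ern1 did not pass the test in control mice, and Ern1 alone did not pass it in cKO mice. The median log2 fold change over the members was 1.10 in control mice and 1.20 in cKO mice, beside -0.0023 and -0.00792 over all genes tested. Library counts taken by the 47 genes went from 0.684 ± 0.028% (SD, n = 2) to 1.72 ± 0.12% in control mice and from 0.705 ± 0.030% (n = 3) to 1.85 ± 0.16% in cKO mice. A CPM value is a share of a library's counts, so a change in the total RNA of a cell is not seen, and fewer cells of a type cannot be told apart from less RNA per cell.

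The median change differed between the 3 compartments, while the ranges of their genes overlapped. For each mouse, the difference in log2 CPM between its activated and rested library was taken for every gene, and the median over the genes of a compartment was formed. That median was 1.80 and 2.31 for mitochondrial chaperones in control mice 1 and 2, and 2.03, 1.90 and 2.39 in cKO mice 1, 2 and 3. For cytosolic members it was 1.16 and 1.38 in the control mice and 1.31, 1.20 and 1.47 in the cKO mice. For ER members it was 0.634 and 0.631 in the control mice and 0.788, 0.709 and 0.886 in the cKO mice. The order mitochondrion, cytosol, ER held in each of the 5 mice, and no median of one compartment overlapped those of another. The mitochondrial median rests on 4 genes, and no test of the difference was made. Single log2 fold changes in control mice ran from 0.59 to 2.54 for mitochondrial, from 0.11 to 3.46 for cytosolic and from -0.52 to 2.90 for ER members. In the lists of further genes given below, the mitochondrial medians (0.471 in control and 0.45 in cKO mice) were not above the cytosolic ones (0.485 and 0.522). Over all genes tested the same median lay between -0.0105 and 0.00981. Of the cytosolic members, 22 of 24 rose in control mice and 24 of 24 in cKO mice. All 4 mitochondrial members rose in both genotypes, and 16 of 19 ER members rose and 2 fell in both.

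**Figure D1:**
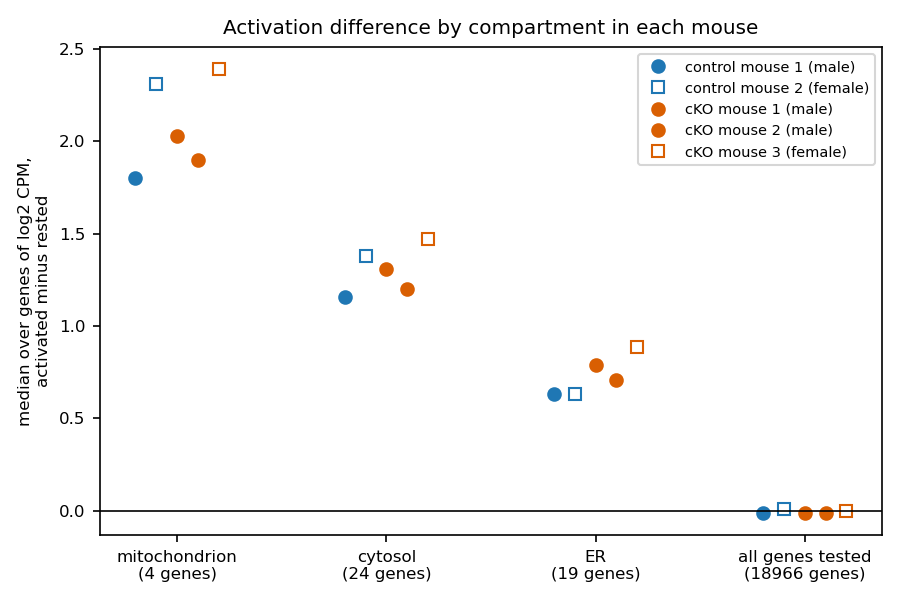
Median over genes of the log2 CPM difference between the activated and the rested library of each mouse (vertical axis), for mitochondrial, cytosolic and ER members and for all 18966 genes tested. Each point is 1 mouse, from left to right control 1 and 2 and cKO 1, 2 and 3, with blue for control, orange for cKO and open squares for female mice. The mitochondrial points lie between 1.80 and 2.39, the cytosolic points between 1.16 and 1.47, the ER points between 0.631 and 0.886, and the points for all genes near 0.

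**Figure D2:**
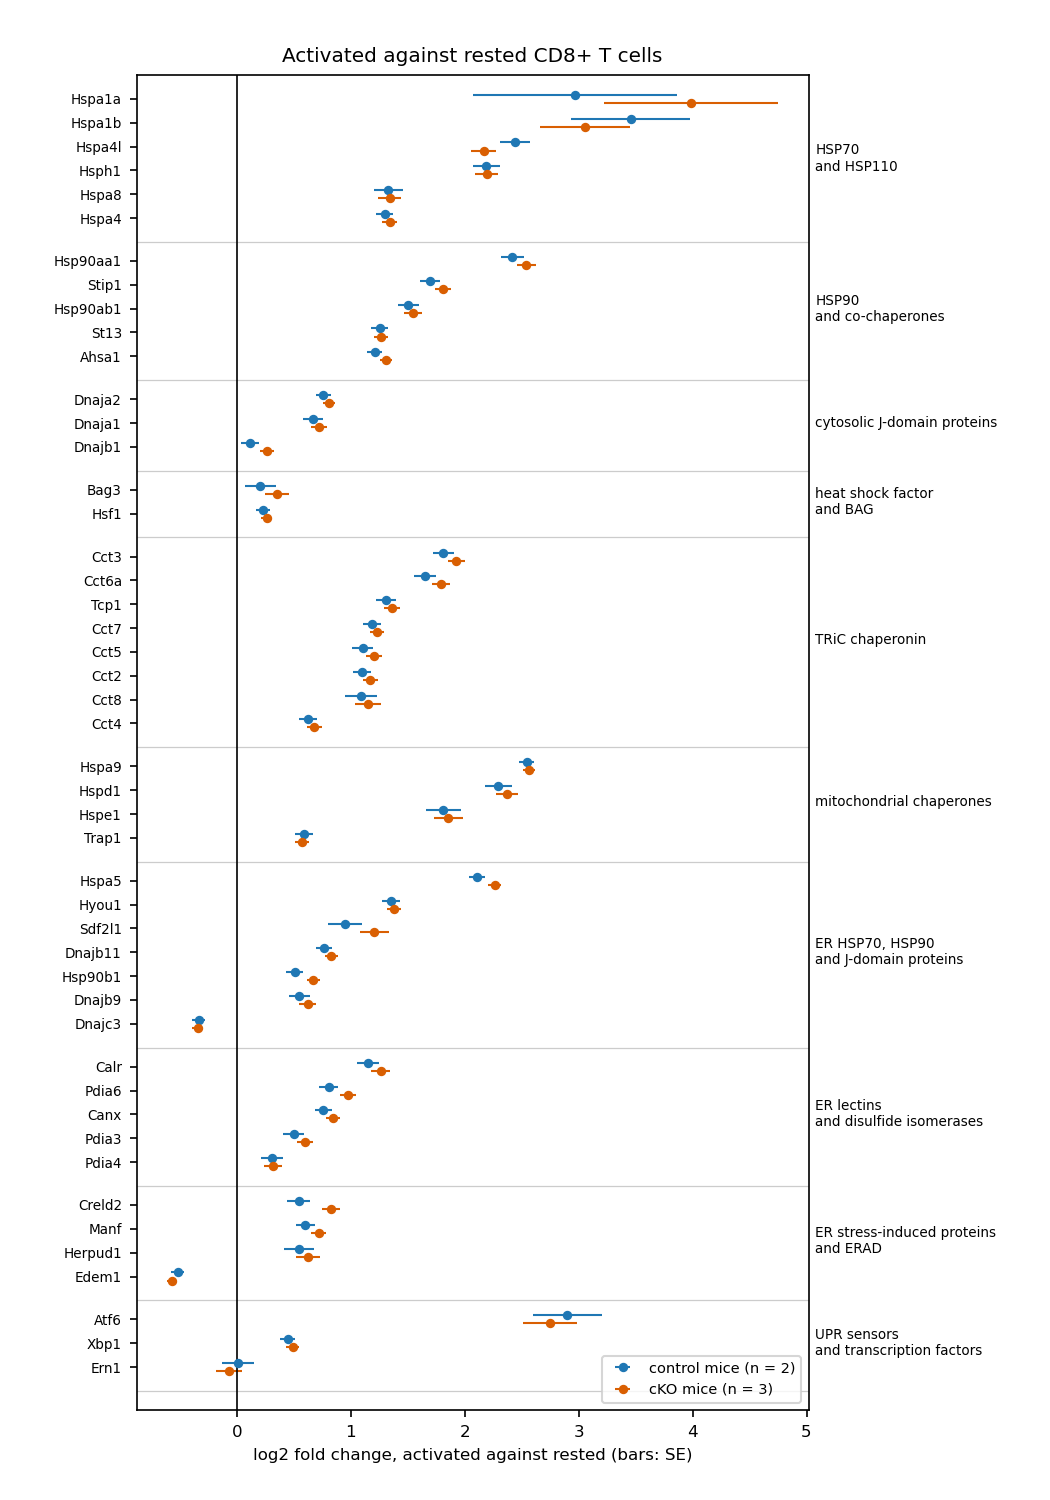
Log2 fold change of each of the 47 genes, activated against rested (horizontal axis), with its standard error as a bar, in control mice (blue, n = 2) and cKO mice (orange, n = 3), by class. Nearly all points lie to the right of 0 and the 2 genotypes lie close together. Dnajc3 and Edem1 lie to the left, and Hspa1a, Hspa1b and Atf6 have the widest bars.

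The promoters of some members hold sequence elements of the 2 stress pathways. RefSeq promoter windows (GRCm38.p6, 250 bases before to 50 after a start) were at hand for 37 of the 47 genes, with 44 windows. The 10 genes without a window were Hspa8, Hsp90aa1, Hsp90ab1, St13, Hsf1, Cct4, Hspa9, Hyou1, Manf and Atf6, and these were not searched. Heat shock cores were searched as GAA, 2 bases of any letter, TTC, and as TTC, 2 bases of any letter, GAA, each of which reads the same on both strands. The ER stress response element, the site of the ATF6 and XBP1 pathway, was searched on both strands as CCAAT, 9 bases of any letter, CCACG, and includes a CCAAT box. Its second form was searched as ATTGG, 1 base of any letter, CCACG. The ER stress response element was in 7 of 16 ER windows (43.8%; Calr, Canx, Creld2, Dnajc3, Hsp90b1, Hspa5 and Pdia6), in no cytosolic or mitochondrial window, and in 0.119% of all 32851 windows of the table. The second form was in the windows of Dnajb11 and Herpud1, and in 0.0365% of all windows. Heat shock cores were in 9 of 24 cytosolic windows (37.5%; Bag3, Cct2, Cct5, Cct6a, Dnaja1, Hspa1a, Hspa1b and Hsph1), in 2 of 4 mitochondrial windows, in none of the 16 ER windows, and in 15.1% of all windows. A match is a description of letters and not a bound site. The 250 bases before the start are printed for 6 genes, 5′ to 3′ on the strand of the gene with the matches in capitals. Hspa5, Hsp90b1 and Calr carry the ER element and rose after activation, and Dnajc3 carries it and fell. The windows of Hspe1 and Hspa1b show the heat shock core, in Hspe1 as overlapping matches. The neighbouring Hspd1 starts in the opposite direction, and its window overlaps that of Hspe1 and holds the same matches. The windows lie at chr2:34771840-34772089 (plus strand), chr10:86705445-86705694 (minus), chr8:84846932-84847181 (minus), chr14:118937682-118937931 (plus), chr1:55087898-55088147 (plus) and chr17:34959239-34959488 (minus) of GRCm38.p6.
Hspa5: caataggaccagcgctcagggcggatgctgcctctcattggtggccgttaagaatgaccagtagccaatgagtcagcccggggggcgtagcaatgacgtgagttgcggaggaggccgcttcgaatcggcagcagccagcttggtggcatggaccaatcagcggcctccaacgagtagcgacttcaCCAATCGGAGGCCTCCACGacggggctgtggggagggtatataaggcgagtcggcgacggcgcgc
Hsp90b1: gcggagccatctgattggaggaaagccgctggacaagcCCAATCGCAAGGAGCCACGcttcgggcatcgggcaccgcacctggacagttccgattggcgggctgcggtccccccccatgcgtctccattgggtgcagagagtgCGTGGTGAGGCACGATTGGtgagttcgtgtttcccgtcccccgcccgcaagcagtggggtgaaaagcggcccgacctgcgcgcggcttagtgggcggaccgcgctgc
Calr: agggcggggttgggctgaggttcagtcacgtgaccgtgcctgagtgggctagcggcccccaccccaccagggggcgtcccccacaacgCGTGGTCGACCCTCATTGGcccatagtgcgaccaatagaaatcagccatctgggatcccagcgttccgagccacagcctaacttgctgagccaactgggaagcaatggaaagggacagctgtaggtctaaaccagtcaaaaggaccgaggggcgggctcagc
Dnajc3: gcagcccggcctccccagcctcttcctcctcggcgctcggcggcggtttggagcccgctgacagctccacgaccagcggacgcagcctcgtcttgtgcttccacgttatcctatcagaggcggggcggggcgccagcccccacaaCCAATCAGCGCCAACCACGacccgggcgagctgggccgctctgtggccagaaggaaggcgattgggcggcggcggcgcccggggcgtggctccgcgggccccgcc
Hspe1: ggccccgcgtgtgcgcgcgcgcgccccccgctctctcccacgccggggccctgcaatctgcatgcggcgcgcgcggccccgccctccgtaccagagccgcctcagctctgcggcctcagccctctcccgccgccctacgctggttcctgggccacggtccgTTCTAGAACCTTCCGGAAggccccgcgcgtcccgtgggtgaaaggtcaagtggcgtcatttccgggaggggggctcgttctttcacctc
Hspa1b: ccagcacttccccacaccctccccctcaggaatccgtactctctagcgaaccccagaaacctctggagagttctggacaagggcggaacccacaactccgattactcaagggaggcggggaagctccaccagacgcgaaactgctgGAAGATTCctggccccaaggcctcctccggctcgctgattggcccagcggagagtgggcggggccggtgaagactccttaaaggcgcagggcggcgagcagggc

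Among the 6 HSP70 and HSP110 genes of the cytosol, all rose in both genotypes. Hspa8 encodes the constitutive HSP70 that serves newly made proteins. Its level went from 1004 and 776 CPM to 2245 and 2221 CPM in the control mice and from 911, 1073 and 961 CPM to 2254, 2468 and 2723 CPM in the cKO mice. Every activated library stood above every rested library. The log2 fold change was 1.33 ± 0.13 (SE) in control mice and 1.34 ± 0.10 in cKO mice (adjusted p = 5.1e-06 and 5.74e-07, edgeR). Here and below, the ± of a log2 fold change is a standard error from the fit to all 10 libraries. It is not an SD over the mice of a group. Hspa4, itself an HSP110-type exchange factor of HSP70, went from 139 and 145 CPM to 324 and 378 CPM in the control mice and from 139, 142 and 149.5 CPM to 362, 319 and 409 CPM in the cKO mice. That corresponds to a log2 fold change of 1.30 ± 0.08 in control mice and 1.34 ± 0.06 in cKO mice. Hspa4l and Hsph1, relatives of Hspa4, rose by 2.44 and 2.17 and by 2.19 and 2.19 on the log2 scale in control and cKO mice.

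The stress-inducible pair Hspa1a and Hspa1b encodes nearly identical HSP70 proteins and lies on chromosome 17 (chr17:35188166-35191132 and chr17:35175412-35178214, mm39). How the authors' counting divided reads between them, and whether it kept reads that match both, is uncertain. Hspa1b went from 0.463 and 0.372 CPM to 5.40 and 3.82 CPM in the control mice and from 0.562, 0.644 and 0.977 CPM to 3.16, 8.61 and 6.47 CPM in the cKO mice. Hspa1a went from 0.360 and 0.0709 CPM to 1.89 and 1.52 CPM in the control mice and from 0.0803, 0.0696 and 0.350 CPM to 1.18, 4.36 and 2.56 CPM in the cKO mice. Rested libraries held only 4 to 21 counts of Hspa1a, and the groups did not overlap for either gene. The log2 fold change of Hspa1b was 3.46 ± 0.52 in control mice and 3.06 ± 0.40 in cKO mice (adjusted p = 0.000339 and 9.43e-05). For Hspa1a it was 2.97 ± 0.90 in control mice and 3.99 ± 0.76 in cKO mice (adjusted p = 0.0226 and 0.00196), and the control value lost its call without control mouse 1 (4.38, adjusted p = 0.0687) and without control mouse 2 (2.39, adjusted p = 0.18). With 1 control mouse left out, 1 activated control library is set against 1 rested one, and the spread is taken from the cKO libraries, here and for the like values of other genes. With the counts of both genes summed, the log2 fold change was 3.31 ± 0.65 in control mice (adjusted p = 0.00368) and 3.29 ± 0.51 in cKO mice (adjusted p = 0.000882). Among the activated cKO libraries the levels of both genes were lowest in cKO mouse 1 and highest in cKO mouse 2. A separate list of 12 dissociation and stress-response genes summed to 788 to 967 CPM in rested and 1510 to 1880 CPM in activated libraries, and its part in these changes was not tested.

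All 5 genes of HSP90 and its co-chaperones rose. Hsp90aa1, the inducible cytosolic HSP90, went from 114 and 103 CPM to 539 and 629 CPM in the control mice and from 104, 116 and 115 CPM to 615, 596 and 748 CPM in the cKO mice. Hsp90ab1, its constitutive relative, went from 1510 and 1392 CPM to 3863 and 4415 CPM in the control mice and from 1377, 1590 and 1627 CPM to 4181, 4217 and 5049 CPM in the cKO mice. Neither gene showed overlap between rested and activated libraries, and the highest library of each was that of activated cKO mouse 3. The log2 fold change was 2.42 ± 0.10 in control mice and 2.54 ± 0.08 in cKO mice for Hsp90aa1 (adjusted p = 2e-09 and 1.12e-10). For Hsp90ab1 it was smaller, 1.50 ± 0.09 in control mice and 1.55 ± 0.08 in cKO mice (adjusted p = 3.69e-08 and 2.19e-09). Per length, Hsp90aa1 was 5.72 ± 0.082% (SD, n = 2) of Hsp90ab1 in rested and 10.7 ± 0.16% in activated control cells, and 5.58 ± 0.20% (n = 3) and 11.1 ± 0.28% in cKO cells. Hsp90ab1 thus remained the more abundant transcript in all libraries. Stip1, the adaptor that joins HSP70 to HSP90, rose by 1.69 and 1.81 on the log2 scale, and the HSP70 co-factor St13 by 1.25 and 1.27. Ahsa1, which stimulates the ATPase of HSP90, went from 67.1 and 67.7 CPM to 149 and 163 CPM in the control mice and from 65.8, 68.3 and 71.4 CPM to 159.7, 161 and 189.6 CPM in the cKO mice, with a log2 fold change of 1.21 ± 0.07 in control mice and 1.31 ± 0.05 in cKO mice.

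J-domain proteins deliver clients to HSP70 and start its ATPase cycle. Of the 3 cytosolic ones, Dnaja2 went from 134 and 128 CPM to 210.4 and 233 CPM in the control mice and from 133, 138 and 135 CPM to 236, 225 and 249 CPM in the cKO mice, and its log2 fold change was 0.76 ± 0.07 in control mice and 0.81 ± 0.05 in cKO mice (adjusted p = 6.04e-07 and 2.72e-08). Dnaja1 rose by 0.67 and 0.72 on the log2 scale. Dnajb1, a heat-inducible member, went from 86.5 and 92.2 CPM to 99.5 and 93.7 CPM in the control mice and from 83.0, 92.1 and 89.3 CPM to 99.1, 113 and 105 CPM in the cKO mice. The log2 fold change of Dnajb1 was 0.11 ± 0.08 in control mice and 0.26 ± 0.06 in cKO mice (adjusted p = 0.235 and 0.0023), so only the cKO comparison passed the threshold. The difference between the 2 genotypes was 0.15 ± 0.10 (adjusted p = 1 for the interaction), so the response of Dnajb1 was not shown to differ between them.

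Hsf1, the heat shock transcription factor, moved little. It went from 83.2 and 93.2 CPM to 99.7 and 106 CPM in the control mice and from 84.5, 85.4 and 84.5 CPM to 98.5, 104 and 103 CPM in the cKO mice, a log2 fold change of 0.23 ± 0.06 in control mice and 0.26 ± 0.05 in cKO mice (adjusted p = 0.00782 and 0.000592), and the control value lost its call without control mouse 1 (0.19, adjusted p = 0.137). Bag3 encodes a co-chaperone that links HSP70 to autophagy and is itself a textbook target of HSF1. Bag3 went from 11.9 and 5.84 CPM to 13.9 and 6.66 CPM in the control mice and from 12.1, 13.5 and 6.12 CPM to 13.9, 16.2 and 9.28 CPM in the cKO mice. The rested and activated libraries overlapped, since the libraries of the 2 female mice were low in both states. Within each mouse the activated library was the higher one. Its log2 fold change was 0.21 ± 0.13 in control mice and 0.35 ± 0.11 in cKO mice (adjusted p = 0.209 and 0.0112), and the cKO value lost its call without cKO mouse 3 (0.23, adjusted p = 0.108) and without the sex term (0.31, adjusted p = 0.569).

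TRiC is a double ring of 8 different subunits that folds actin, tubulin and other proteins, and the genes of all 8 subunits rose in both genotypes. Their log2 fold changes ran from 0.62 for Cct4 to 1.81 for Cct3 in control mice and from 0.68 to 1.93 for the same genes in cKO mice. Cct3 went from 96.7 and 98.6 CPM to 313 and 376 CPM in the control mice and from 96.7, 99.7 and 96.4 CPM to 360.5, 328 and 431 CPM in the cKO mice. Cct4 went from 242 and 233 CPM to 341 and 393 CPM in the control mice and from 232, 252 and 254 CPM to 398, 358 and 426 CPM in the cKO mice. Tcp1, which gave the complex its name, went from 149.9 and 149 CPM to 339 and 404 CPM in the control mice and from 151, 157 and 151 CPM to 377, 360.2 and 446 CPM in the cKO mice. In none of these did a rested library overlap an activated one. The log2 fold change was 1.81 ± 0.09 in control mice and 1.93 ± 0.08 in cKO mice for Cct3 (adjusted p = 7.76e-09 and 3.79e-10) and 0.62 ± 0.08 in control mice and 0.68 ± 0.06 in cKO mice for Cct4 (adjusted p = 1.45e-05 and 6.15e-07). Tcp1 rose by 1.31 ± 0.08 in control mice and 1.36 ± 0.07 in cKO mice (adjusted p = 4.35e-08 and 2.3e-09). Between them came Cct6a (1.65 and 1.79 in control and cKO mice), Cct7 (1.19 and 1.23), Cct2 (1.10 and 1.17), Cct5 (1.10 and 1.20) and Cct8 (1.09 and 1.15). Although the subunits sit in the ring in equal numbers, their transcript levels per length differed. No principal transcript's length was at hand for Cct6a. With that length for the other subunits, the highest (Cct2) exceeded the lowest by 2.54 times in rested and 2.16 times in activated control cells. With the deposited gene length, which can cover exons of several transcripts, the ratios over all 8 subunits were 6.26 and 4.50. Cct2 was again highest and Cct3 and Cct7 were lowest, so Cct6a set neither ratio. The unequal levels thus rest in part on the length used.

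The mitochondrial chaperones take in and fold imported proteins, and they included the member with the smallest adjusted p in both genotypes. Hspa9, the mitochondrial HSP70, went from 141 and 147 CPM to 809 and 869 CPM in the control mice and from 144, 147 and 148 CPM to 905, 817 and 870.5 CPM in the cKO mice. It rose by 5.83-fold and 5.91-fold in control and cKO mice, and its log2 fold change was 2.54 ± 0.07 in control mice and 2.56 ± 0.06 in cKO mice (adjusted p = 1.79e-11 and 1.54e-12). The 5 rested libraries lay within a narrow band and all 5 activated libraries stood far above it. Hspd1, the chaperonin HSP60, went from 81.4 and 71.2 CPM to 341 and 413 CPM in the control mice and from 76.0, 81.6 and 79.2 CPM to 386, 367 and 475 CPM in the cKO mice. Hspe1, the lid HSP10 that closes the HSP60 chamber, went from 42.1 and 35.7 CPM to 122 and 152 CPM in the control mice and from 43.6, 45.4 and 37.8 CPM to 144, 139.9 and 177 CPM in the cKO mice. Both were highest in the activated libraries of the 2 female mice. Their log2 fold changes were 2.29 ± 0.12 in control mice and 2.37 ± 0.10 in cKO mice for Hspd1 (adjusted p = 2.83e-08 and 2.07e-09) and 1.81 ± 0.15 in control mice and 1.86 ± 0.13 in cKO mice for Hspe1 (adjusted p = 7.53e-06 and 9.61e-07). The pair lies head to head on chromosome 1 (chr1:55116994-55127402 and chr1:55127291-55130466, mm39) and overlaps by 112 bases on opposite strands, where reads may be assigned to either gene. Per length, Hspe1 stood at 91.3 ± 2.0% of Hspd1 in rested and 64.9 ± 1.2% in activated control cells, and at 96.0 ± 9.2% and 67.2 ± 0.92% in cKO cells. The fall of that ratio was seen in all 5 mice, and with the principal transcript's length it was from 159 ± 3.4% to 113 ± 2.1% in control cells. Trap1, the mitochondrial HSP90, went from 74.3 and 78.5 CPM to 106 and 123 CPM in the control mice and from 80.8, 80.3 and 76.1 CPM to 121, 110.3 and 122 CPM in the cKO mice, a log2 fold change of 0.59 ± 0.08 in control mice and 0.57 ± 0.06 in cKO mice (adjusted p = 1.79e-05 and 2.23e-06).

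Among the ER chaperones, Hspa5 rose most. It encodes BiP, the ER HSP70 that also holds the 3 stress sensors inactive. Hspa5 (chr2:34661982-34667559, mm39) went from 117 and 124 CPM to 484 and 559 CPM in the control mice and from 115, 118 and 120.5 CPM to 569, 516 and 611 CPM in the cKO mice. It rose by 4.32-fold and 4.8-fold, with a log2 fold change of 2.11 ± 0.07 in control mice and 2.26 ± 0.06 in cKO mice (adjusted p = 1.38e-10 and 5.49e-12). Hsp90b1, the ER HSP90 known as GRP94, went from 276 and 270.1 CPM to 366 and 410.1 CPM in the control mice and from 266, 278 and 264 CPM to 438, 399 and 449 CPM in the cKO mice. Its log2 fold change of 0.51 ± 0.07 in control mice and 0.67 ± 0.06 in cKO mice (adjusted p = 4.48e-05 and 3.11e-07) was far below that of Hspa5, and both promoters carry the ER stress response element shown above. Per length, Hspa5 accordingly went from 42.1 ± 2.6% to 128 ± 2.8% of Hsp90b1 in control cells and from 41.7 ± 1.7% to 126 ± 3.5% in cKO cells. Hyou1, an ER exchange factor of the HSP110 type, rose by 1.35 and 1.38 on the log2 scale. The ER J-domain genes split: Dnajb9 (0.54 and 0.62) and Dnajb11 (0.77 and 0.83) rose, as did Sdf2l1 (0.95 and 1.21), whose product works with Dnajb11. Dnajc3, which encodes the BiP partner p58IPK, went from 122 and 116 CPM to 96.9 and 91.9 CPM in the control mice and from 119, 122 and 114 CPM to 91.0, 95.7 and 92.2 CPM in the cKO mice. All 5 activated libraries of Dnajc3 lay below all rested ones, and the log2 fold change was -0.33 ± 0.06 in control mice and -0.35 ± 0.05 in cKO mice (adjusted p = 0.000236 and 2.18e-05).

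The ER lectins calnexin (Canx) and calreticulin (Calr) hold glycoproteins during folding, and the disulfide isomerases Pdia3, Pdia4 and Pdia6 form and rearrange their disulfide bonds. All 5 genes rose in both genotypes. Calr went from 219 and 215 CPM to 434 and 536 CPM in the control mice and from 218, 219 and 216 CPM to 501, 459 and 612 CPM in the cKO mice. The log2 fold change of Calr was 1.15 ± 0.10 in control mice and 1.26 ± 0.08 in cKO mice (adjusted p = 7.12e-07 and 2.79e-08), and its activated levels were highest in the 2 female mice. Pdia4 went from 56.0 and 48.9 CPM to 59.3 and 70.8 CPM in the control mice and from 54.4, 57.7 and 55.8 CPM to 71.2, 63.9 and 73.8 CPM in the cKO mice. This smallest change of the class was 0.31 ± 0.09 in control mice and 0.32 ± 0.08 in cKO mice (adjusted p = 0.0143 and 0.00292), and the control value lost its call without control mouse 2 (0.09, adjusted p = 0.586). Canx rose by 0.76 and 0.84, Pdia6 by 0.80 and 0.97 and Pdia3 by 0.50 and 0.60 on the log2 scale.

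Of the 4 genes for ER stress-induced proteins and ER-associated degradation (ERAD), 3 rose and 1 fell. Creld2, a secreted-pathway protein with isomerase activity, went from 16.7 and 18.8 CPM to 25.7 and 25.9 CPM in the control mice and from 17.6, 17.4 and 14.9 CPM to 28.2, 29.4 and 30.9 CPM in the cKO mice. Its log2 fold change was 0.54 ± 0.10 in control mice and 0.83 ± 0.08 in cKO mice (adjusted p = 0.000382 and 9.54e-07). Manf, an ER protein that binds BiP, rose by 0.60 and 0.72. Herpud1, a scaffold of the ERAD machinery, rose by 0.54 and 0.63, and its control value lost its call without control mouse 1 (0.35, adjusted p = 0.116). Edem1, which marks misfolded glycoproteins for ERAD, went from 315 and 305 CPM to 222 and 209.8 CPM in the control mice and from 305, 306 and 301 CPM to 206, 209 and 200.2 CPM in the cKO mice. Every activated library of Edem1 lay below every rested one, with a log2 fold change of -0.52 ± 0.06 in control mice and -0.57 ± 0.05 in cKO mice (adjusted p = 3.15e-06 and 1.21e-07).

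The 3 genes for sensors and transcription factors of the unfolded protein response differed from one another. Atf6 (chr1:170532243-170695340, mm39) went from 8.57 and 4.19 CPM to 48.9 and 42.9 CPM in the control mice and from 11.6, 9.05 and 5.38 CPM to 68.5, 49.8 and 51.2 CPM in the cKO mice. It rose by 7.47-fold and 6.71-fold, with a log2 fold change of 2.90 ± 0.30 in control mice and 2.75 ± 0.24 in cKO mice (adjusted p = 0.000141 and 4.08e-05), and was the ER member with the largest change. Xbp1 went from 36.2 and 40.5 CPM to 51.4 and 53.0 CPM in the control mice and from 39.9, 38.8 and 38.5 CPM to 52.7, 54.0 and 57.9 CPM in the cKO mice, a log2 fold change of 0.44 ± 0.07 in control mice and 0.49 ± 0.06 in cKO mice (adjusted p = 9.22e-05 and 4.15e-06). These counts are per gene, so spliced and unspliced Xbp1 mRNA were not told apart. Ern1 went from 20.7 and 21.6 CPM to 23.1 and 19.4 CPM in the control mice and from 22.0, 19.6 and 23.7 CPM to 24.0, 17.8 and 20.4 CPM in the cKO mice. Rested and activated libraries of Ern1 overlapped, and the log2 fold change was 0.01 ± 0.14 in control mice and -0.07 ± 0.11 in cKO mice (adjusted p = 0.971 and 0.63). Plasma cells, which are rich in ER proteins, were looked for beside these results. Without Irf4, which activated T cells also express, the plasma cell list summed to 6.73 to 14.4 CPM over the 10 libraries, of which Prdm1, which T cells also express, made up 5.16 to 11.2 CPM. Jchain was at most 0.652, Sdc1 at most 0.992, Igha at most 0.435, Mzb1 at most 0.15, Iglc1 at most 0.0737 and Tnfrsf17 at most 0.0173 CPM. Ighg1 stood at 4.68 CPM in the rested library of control mouse 1 and at 0 to 0.0402 CPM in the other 9 libraries. Irf4 itself went from 5.62 to 9.24 CPM at rest to 955 to 1340 CPM after activation.

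**Figure D3:**
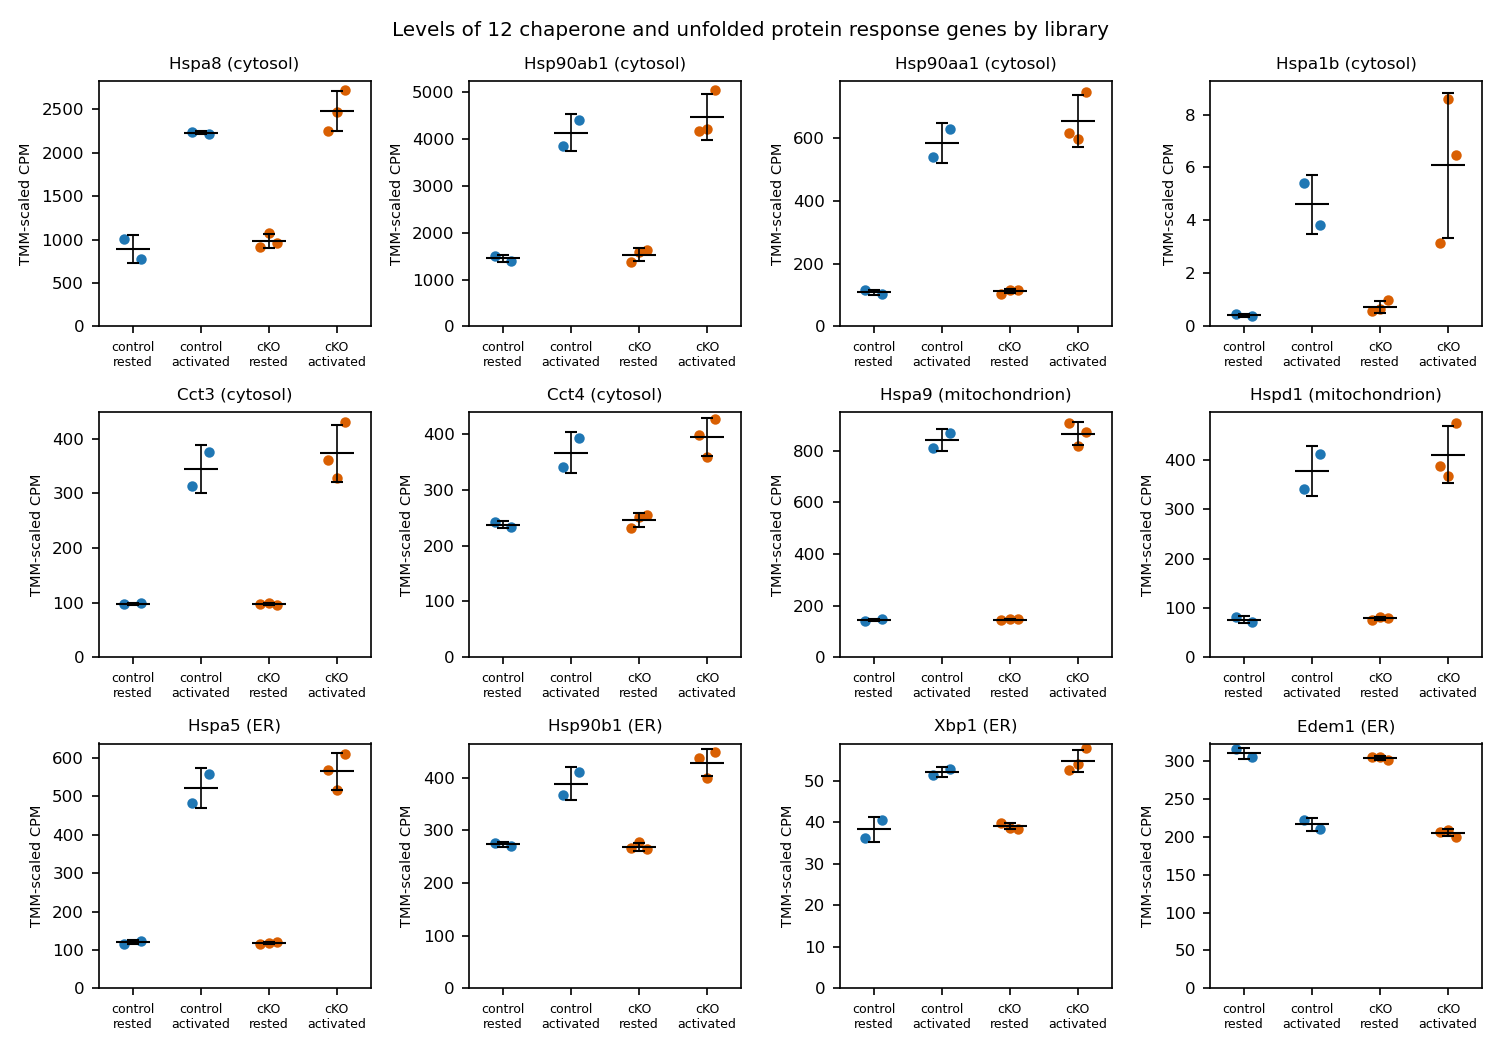
TMM-scaled CPM of 12 members (vertical axes start at 0) in the 10 libraries, with blue points for control and orange points for cKO mice, the mean as a horizontal line and the SD as a bar. Activated libraries stand above rested ones in 11 panels, including Hspa5 (115 to 125 CPM rested, 484 to 611 CPM activated), and below them in the panel of Edem1.

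Levels between members were compared per length, as deposited FPKM. Hsp90ab1 was the most abundant member in each group, at 472 ± 25.7 FPKM (SD, n = 2) in rested and 1410 ± 123 FPKM in activated control cells. Hspa8 came next at 202 ± 35.9 and 531 ± 7.89 FPKM. In rested control cells Cct2 (93.6 ± 0.568 FPKM), Calr (73.6 ± 0.601 FPKM) and Hsp90b1 (66.1 ± 0.860 FPKM) followed. After activation the next 3 were Cct2 (211 ± 21.9 FPKM), Hspa9 (199 ± 8.58 FPKM) and Calr (172 ± 24.2 FPKM), of which Cct2 and Hspa9 did not differ beyond their spread. Hspa9 thus moved from 32.6 ± 1.10 FPKM, in the middle of the members, to the group of the most abundant ones. The lowest members at rest were Hspa1a (0.0708 ± 0.0670 FPKM), Hspa1b (0.145 ± 0.0218 FPKM) and Atf6 (0.674 ± 0.326 FPKM). After activation Hspa1a and Hspa1b remained lowest as counted, at 0.589 ± 0.0935 and 1.68 ± 0.421 FPKM. Reads that match both copies may have been left out, so the true levels of these 2 genes may be higher. As counted and per length, Hspa1b was 0.0722 ± 0.002% of Hspa8 in rested and 0.316 ± 0.075% in activated control cells. These levels rest in part on the deposited length. With the principal transcript's length, Hspa1b was 0.0402 ± 0.0011% and 0.176 ± 0.042% of Hspa8. Cct5 (95.2 ± 1.57 per length) then stood beside Hsp90b1 (94.4 ± 1.23) in rested control cells. In activated control cells Hspa9 (281.5 ± 12.1) stood beside Cct2 (275 ± 28.5).

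The genes with a promoter match were set beside those without one. Of the ER members with a window, the 7 with the ER stress response element had a median activation log2 fold change of 0.757 in control mice and 0.841 in cKO mice, with single control values from -0.33 (Dnajc3) to 2.11 (Hspa5). The 9 without it had medians of 0.496 and 0.598, with control values from -0.52 (Edem1) to 0.95 (Sdf2l1). These 9 include Dnajb11 and Herpud1, whose windows hold the second form of the element, which was not used for this split. The ranges overlapped widely. Of the cytosolic members with a window, the 8 with a heat shock core had medians of 1.38 and 1.50. The 10 without one had medians of 1.25 and 1.32, again with overlapping ranges. Among the genes with a core, the control values ran from 0.21 for Bag3 to 3.46 for Hspa1b, and among those without one from 0.11 for Dnajb1 to 2.44 for Hspa4l.

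Other genes of the same pathways were counted from 4 lists. For reference to these counts, 28.5% of all genes tested rose and 27.6% fell in control mice. In cKO mice 31.5% rose and 31.9% fell. Of 12 genes of the integrated stress response and PERK branch, 9 rose, 1 fell and 2 were not called in both genotypes, with medians of 1.30 in control and 1.37 in cKO mice. Chac1, a target of the ATF4 and CHOP factors, had the largest log2 fold change (5.90 ± 0.19 and 5.40 ± 0.15 in control and cKO mice), followed by asparagine synthetase Asns (4.46 ± 0.31 and 4.29 ± 0.24). The transcription factor Cebpb rose by 3.30 ± 0.15 and 2.92 ± 0.12. Eif2ak3, which encodes PERK itself, fell (-0.62 ± 0.09 and -0.66 ± 0.07). Ppp1r15b, a constitutive subunit of the phosphatase that restores translation, was near 0 (-0.03 ± 0.07 and -0.03 ± 0.05, adjusted p = 0.746 and 0.592).

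Of 31 further ER folding and ERAD genes, 10 rose, 7 fell and 14 were not called in control mice, and 12 rose, 11 fell and 8 were not called in cKO mice. Their medians were -0.0287 and -0.00376, close to those of all genes tested. Hspa13, another HSP70-type ER protein, rose (1.04 ± 0.09 and 1.06 ± 0.08), as did the oxidase Ero1l, which recharges disulfide isomerases (1.00 ± 0.09 and 1.08 ± 0.07). Mbtps1, the protease that makes the first cut in ATF6, fell (-0.53 ± 0.06 and -0.56 ± 0.05). Pdia5 was at 0 CPM in both rested control libraries and at 0.22 ± 0.074 CPM in activated ones, and Derl3 stayed below 1 CPM on average in each group and was not called.

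Of 28 further cytosolic chaperones and co-chaperones tested, 20 rose and 4 fell in control mice and 21 rose and 4 fell in cKO mice, with medians of 0.485 and 0.522. The co-chaperone Bag2 (2.13 ± 0.30 and 2.44 ± 0.25) and the small heat shock protein Hspb1 (1.57 ± 0.50 and 1.30 ± 0.42, at 1.54 ± 1.46 CPM in activated control cells) had the largest increases. The co-chaperone Hspbp1 rose by 1.14 ± 0.09 and 1.16 ± 0.07. Dnajc7, a J-domain co-chaperone of HSP70 and HSP90, fell most (-0.81 ± 0.07 and -0.83 ± 0.06), and the prefoldin subunit Pfdn5 fell by less (-0.38 ± 0.07 and -0.36 ± 0.05). Of 15 further mitochondrial chaperones and proteases, 10 rose and 3 fell in both genotypes, with medians of 0.471 and 0.45. Atf5, a transcription factor of the mitochondrial unfolded protein response, rose most (3.38 ± 0.18 and 3.26 ± 0.15), followed by the matrix protease Lonp1 (1.63 ± 0.08 and 1.75 ± 0.06). The disaggregase Clpb rose by 0.95 ± 0.10 and 1.06 ± 0.08. The protease subunit Spg7 (-0.46 ± 0.07 and -0.44 ± 0.06) and the iron-sulfur co-chaperone Hscb (-0.31 ± 0.10 and -0.41 ± 0.08) fell.

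The comparison of cKO with control cells asks whether the loss of Dusp2 alters these genes. No member passed the threshold in rested cells, in activated cells or in the interaction, where 0.0422%, 0.0422% and 0% of all genes tested did. By the edgeR test, 0 members at rest, 6 after activation and 1 in the interaction had an unadjusted p below 0.05, as did 4.13%, 6.02% and 2.74% of all genes tested, and the lowest adjusted p was 0.806 after activation. The 6 fell to 0 without the sex term, without control mouse 1 and without cKO mouse 3. DESeq2 called no member either, with 0, 5 and 1 members at an unadjusted p below 0.05. The limma test on log2(FPKM + 0.5) also called none, with 0, 4 and 1. All 4 further lists likewise held no gene called in these comparisons.

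After activation, 42 of the 47 members were higher in cKO cells, with a median log2 difference of 0.109 beside 0.0026 over all genes, of which 50.7% were higher. NK and innate-like lymphocyte markers were also higher in activated cKO cells, 8 of the 9 tested, with a median of 0.761, 4 of them at an unadjusted p below 0.05 and none called (edgeR). They summed to 21.3 to 51.7 CPM in the activated cKO libraries and 9.75 to 28.7 CPM in the activated control libraries, and their part in the members' shift was not tested. The members' median ranged from 0.0676 without cKO mouse 3 to 0.153 without cKO mouse 2, and 41 to 43 members were higher whichever mouse was left out. All members were read from the same libraries and are not independent of one another, so these counts do not add replicates. Values of the genotypes could overlap, as for activated Hsp90aa1 (539 and 629 CPM in control mice, 596 to 748 CPM in cKO mice). At rest 34 members were higher, with a median of 0.0412, beside 51.3% of all genes. That number fell to 14 without control mouse 2 (50.9% of all genes) and to 25 without cKO mouse 2 (47.8%). The interaction was positive for 40 members, beside 47.4% of all genes. It was positive for only 21 without control mouse 1 (52.7% of all genes) and 25 without cKO mouse 3 (47.2%). Single differences after activation ran from -0.19 ± 0.12 (SE) for Hspa4l to 0.65 ± 0.65 for Hspa1a.

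The smallest unadjusted p after activation belonged to Sdf2l1, which went from 6.09 and 6.21 CPM to 10.3 and 13.6 CPM in the control mice and from 6.26, 6.12 and 6.67 CPM to 15.5, 11.5 and 17.2 CPM in the cKO mice. The activated cKO libraries averaged 14.7 ± 2.9 CPM and the activated control libraries 11.95 ± 2.31 CPM, with overlapping values, and the log2 difference was 0.34 ± 0.14 (adjusted p = 0.806, edgeR). Manf followed, with levels that went from 38.5 and 39.5 CPM to 56.1 and 62.3 CPM in the control mice and from 40.3, 42.6 and 38.6 CPM to 67.4, 60.7 and 72.0 CPM in the cKO mice and a log2 difference of 0.18 ± 0.08 (adjusted p = 0.806, edgeR). Its span overlaps those of Dcaf1 and Rbm15b, so the assignment of its reads is uncertain. At rest the smallest unadjusted p were those of Hspa1b (0.80 ± 0.55) and Atf6 (0.37 ± 0.28), both with an adjusted p of 1 in the edgeR test. In the interaction they were those of Creld2 (0.29 ± 0.13) and Hsp90b1 (0.17 ± 0.09), again with an adjusted p of 1 in the edgeR test.

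**Figure D4:**
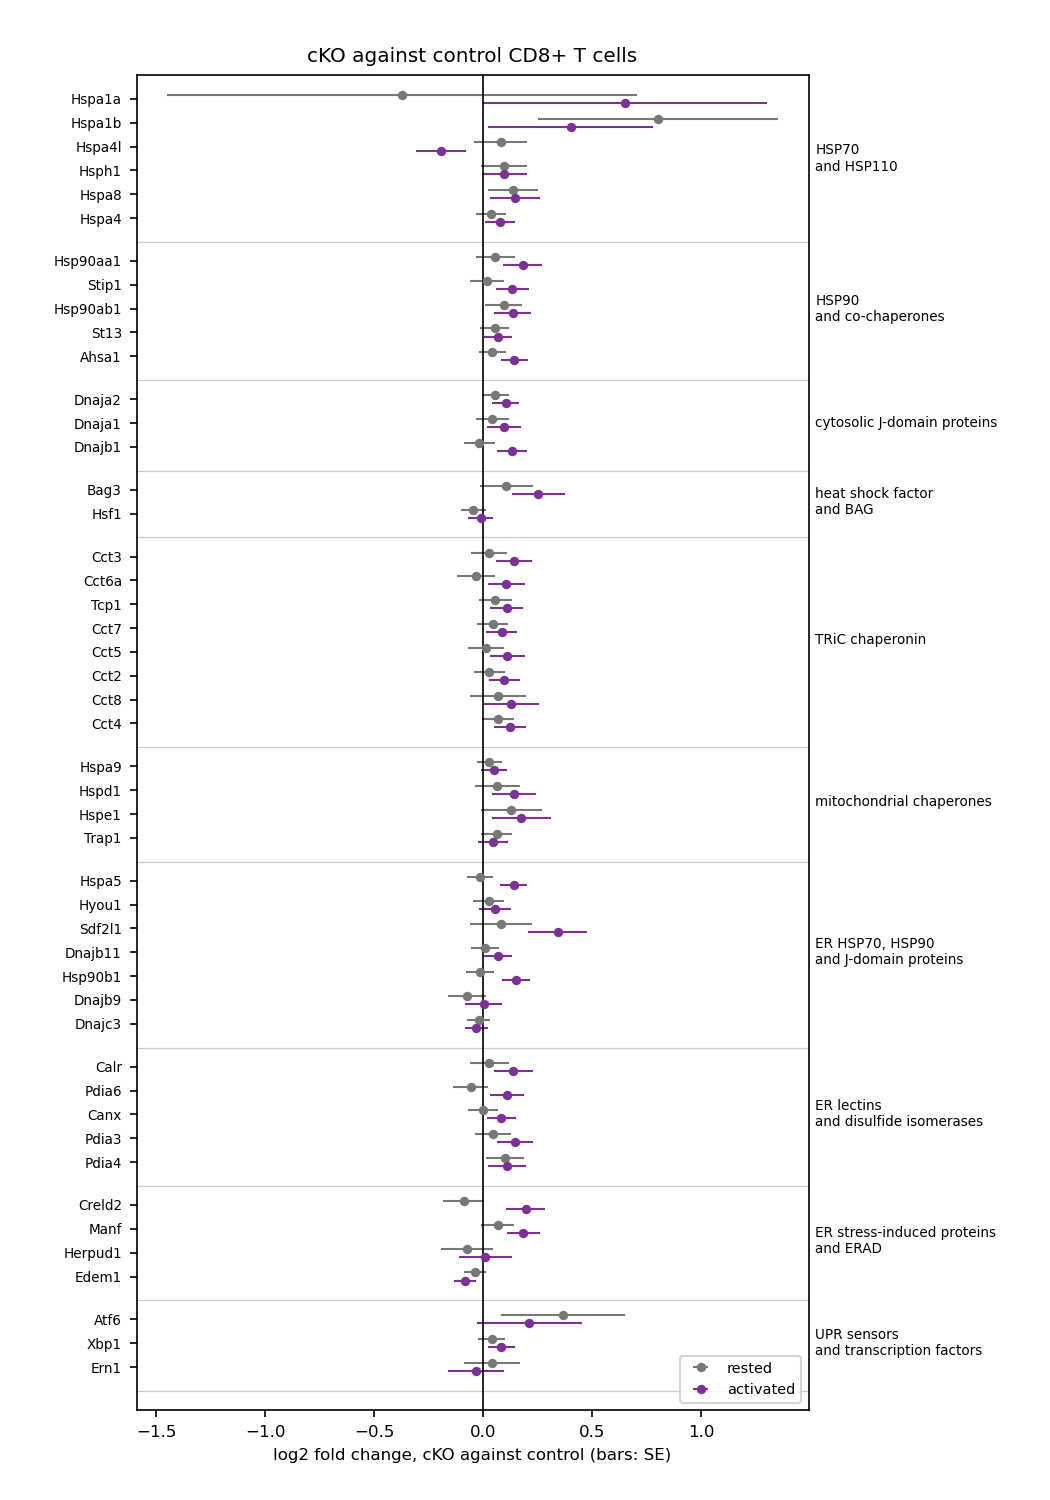
Log2 fold change of each member, cKO against control (horizontal axis), with its standard error as a bar, in rested (grey) and activated (purple) cells. Most activated points lie to the right of 0 by about 0.109, the median, and many bars reach toward or cross 0. The bars of Hspa1a, Hspa1b and Atf6 are the widest.

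The libraries of the 2 female mice stood apart from those of the 3 male mice for some members. This comparison was chosen after the values were seen and is given without a test. After activation, both female libraries lay above all 3 male libraries for 21 of the 47 members, beside 20% of all genes tested. These included 7 of 8 TRiC subunits, all 5 genes of HSP90 and its co-chaperones, 3 of 4 mitochondrial chaperones and 4 of 5 ER lectins and isomerases. They also included 1 of 6 HSP70 and HSP110 genes and 1 of 7 ER HSP70, HSP90 and J-domain genes. The remaining classes held none, and for 2 members both female libraries lay below all male ones. At rest they lay above for 5 members and below for 10, for which no share of all genes was taken. Cct8 shows it with 343 and 389 CPM in the activated female libraries and 254 to 299 CPM in the male ones. At rest Cct8 was at 136 and 139 CPM in the female libraries and 141 to 146 CPM in the male ones. The sex term of the test was shared by both states, so it could not fully take up a sex difference that changes with activation. Only Bag3 and Hspa4 separated the sexes in the same direction in both states, which 9.74% of all genes tested did. Bag3 was lower in female mice, at 0.479 times the male mean at rest and 0.544 times after activation. Its rested means were 12.5 ± 0.89 CPM (SD, n = 3) in male and 5.98 ± 0.20 CPM (n = 2) in female mice. Atf6 was lower in female mice at rest, at 4.79 ± 0.85 CPM against 9.75 ± 1.6 CPM, and its activated libraries overlapped. Herpud1 was higher in female mice at rest (1.09 times) and lower after activation (0.811 times).

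**Figure D5:**
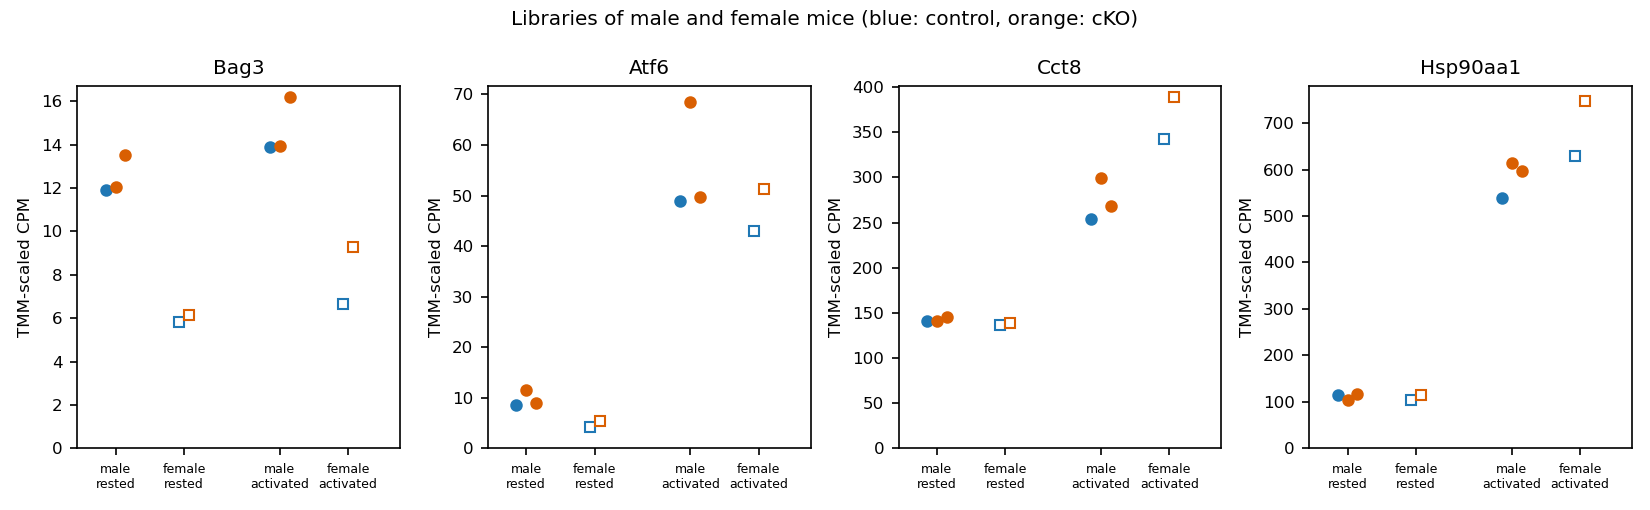
TMM-scaled CPM of Bag3, Atf6, Cct8 and Hsp90aa1 (vertical axes start at 0) in male (filled circles) and female (open squares) mice, rested and activated, with blue for control and orange for cKO. Female libraries lie below male ones for Bag3 in both states and above them for Cct8 and Hsp90aa1 after activation.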

How the data were processed

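Stranded mRNA libraries were built from total RNA, per the labels' protocols. Reads were handled with Subread, FastQC and MultiQC (versions not stated) on genome build mm39, per the submitters' processing notes. For the annotation release, the strand setting and the handling of reads that match several places, the sources used here give nothing. Near-identical copies and overlapping genes are therefore uncertain, and 9 members overlap a gene that has at least 10% of their counts. The authors deposited whole-number counts for each gene. Their deposited FPKM values could be recomputed from these counts, the gene length plus 1 and the total of each column, with a largest relative deviation of 9.4e-07. Replicates were not repeats of one library (chi-square per degree of freedom 8.55 to 41.7), and the mice of a group are separate animals.

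The test was edgeR 4.0.16 in R 4.3.3. Libraries were TMM-scaled, and low genes were removed with filterByExpr (18966 of 57010 kept). Group means with a sex term, shared by rested and activated libraries, were fitted to all 10 libraries by robust quasi-likelihood. P-values were adjusted by Benjamini-Hochberg with a threshold of 0.05. Standard errors were computed back from the test, and CPM values are TMM-scaled. The fit was tested on simulated data for the 18966 genes, 100 of them changed by 1 and 100 by 2 on the log2 scale. For activation in control mice it recovered 85 and 97, with 15 false among 197 calls. For activation in cKO mice it recovered 96 and 100, with 26 false among 222. For genotype it recovered 86 and 97 at rest, with 13 false among 196, and 90 and 99 after activation, with 12 false among 201. The interaction gave 71 and 97, with 24 false among 192. In each case the false share was above the threshold of 0.05. Each comparison was simulated once. Far fewer genes were changed than activation called in the data (10631 in control and 12017 in cKO mice). The false shares therefore do not describe the activation calls. Simulated counts held no sex or mouse effect, and changes were set only in genes above 1 CPM. Differences below 1 on the log2 scale, such as nearly all genotype differences here, were not simulated. Per-mouse log2 CPM used a prior count of 2. Libraries of the same mouse are paired by design, but the main fit held no mouse term. Their deviations from the group means correlated by 0.15 to 0.36. As an alternative with a mouse block, activation and the interaction were tested by edgeR with a term for each mouse. Genotype was tested there by limma with the sex term and a correlation within the mouse, estimated at -0.14. The members, lists and motifs were chosen with earlier results of these data known. Values in every library are given for the members with the highest and lowest activation change of each class, for 15 members picked by name and for the 2 smallest p of each genotype comparison. For the further lists, the 3 highest and the 2 lowest changes by the mean of both genotypes are named. Alternatives were DESeq2 1.42.0, limma 3.58.1 on log2(FPKM + 0.5), other scaling and filters, a replicate block and leaving out each mouse. Levels per principal transcript length and the comparison of male with female mice were added after the data were seen. Protein sequences were not analysed here.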

Additional observations from a re-analysis of the deposited data

How the results depend on the processing

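The counts of members changed by activation stayed within 1.5 times of 44 (control) and 46 (cKO) under 15 other settings, with the exception of a minimum absolute log2 fold change of 1, which left 25 members in control and 26 in cKO mice, all of them higher. With the mouse as a replicate block these counts were 44 and 46, and the genotype and interaction counts 0. The block thus moved no count of members by over 1.5 times. Leaving out 1 mouse gave 41 to 44 and 45 to 46 members. The log2 fold change of Ern1, not called in any of these, turned from 0.01 to -0.156 without control mouse 1 (range -0.156 to 0.168 over the left-out mice) and from -0.07 to 0.012 without cKO mouse 3 (range -0.18 to 0.012). The order of the 3 compartment medians held under every scaling, filter, prior count and left-out mouse tried. No scaling moved the median of all genes by more than 0.066.

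Over all genes, 8 were called by genotype at rest and 8 after activation, against 204 and 211 without a low-count filter, 29 and 21 with DESeq2, 25 and 49 without cKO mouse 2, 15 and 12 without control mouse 1, and 5 and 4 with limma. With the stricter filter (5 CPM in 2 libraries) they were 5 and 5, and after activation 5 with only the groups compared. The interaction went from 0 to 39 genes without the filter, 3 with DESeq2 and 3 without cKO mouse 3. Without control mouse 2, genes called by activation in control mice went from 10631 to 6981; with 1 control mouse, the lone control libraries are assumed to vary like the cKO ones. None of these settings called a member by genotype. Members with an unadjusted p below 0.05 after activation went from 6 (beside 6.02% of all genes) to 22 without the filter (5.52%), 24 with only the groups compared (10.2%) and 13 without cKO mouse 2 (9.13%). They went to 2 without control mouse 2 (3.7%), and to 0 without the sex term (3.36%), without control mouse 1 (3.48%) and without cKO mouse 3 (3.27%).

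The limits are the number of mice, 2 against 3, the coincidence of sex with the mouse series, and 4 to 21 counts for Hspa1a at rest.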
